A study of Mus musculus with 15 samples.

Results

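The genes described are the axon guidance families measured on the arrays: semaphorins and their plexin and neuropilin receptors, ephrins and Eph receptors, Slit and Robo genes, netrins and Unc5 receptors. They were chosen by symbol from the platform annotation, as symbols of the forms Sema with a digit and a letter, Plxn with a letter and a digit, Epha, Ephb, Efna or Efnb with a number, and as Nrp1 and Nrp2, the Slit, Robo and Unc5 genes, and the netrins Ntn1, Ntn3 and Ntn4. This gave 66 of 18193 genes, each read on the brightest of its probe sets. Expression was measured on 15 Affymetrix arrays of NIH3T3, mouse fibroblasts that grow without limit in culture, transduced with the retroviral vector pBabe-puro. The Runx3, Runx2 and Runx1 lines carried the mouse gene of that name for constitutive expression (2 arrays each), and a further line carried human RUNX1 (1 array). RUNX1-ER, a human RUNX1 construct that is switched on by ligand, was profiled after 4-hydroxytamoxifen (4-OHT) and uninduced (2 arrays each), and cells with the empty vector were profiled with 4-OHT and without it (2 arrays each). Per the labels, all cultures were confluent after 7 days and had 0.2% ethanol, alone or with 0.1 mM 4-OHT, for 24 h, and the labels do not say which of these treatments the constitutive lines had. They call the replicates biological but do not say whether a line was a clone or a pool or what was repeated, so the p-values cover the spread among these arrays alone, which may be technical.

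Guidance cues steer moving cells and growth cones by attraction or repulsion. Secreted class 3 semaphorins bind a neuropilin that signals through a type A plexin, while most membrane-bound semaphorins bind plexins directly. Ephrins and Eph receptors are both tethered to membranes, and each side can signal when cells touch. Slit proteins act through Robo receptors, and netrins through Dcc and Unc5 receptors. In fibroblasts and other adherent cells these systems act on the actin cytoskeleton and on integrin contacts with the matrix. The study's title names a program of Runx proteins, a family of DNA-binding transcription factors, in adhesion and survival of cells.

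The cells read as fibroblasts. Of 10 fibroblast markers, 9 lay above the 75th percentile of every array, and Lum lay above it on none. Of 6 epithelial markers 1, Krt8, lay above that percentile, on 3 arrays, and none of the endothelial (6), haematopoietic (5), neuronal (7), glial (4) or skeletal muscle (5) markers measured did so on any array. The mean of the fibroblast markers ran from 10.33 to 10.38 log2 units in the Runx3 line, against 10.50 to 10.54 in vector cells. It was 10.38 on the human RUNX1 array. The mean of the epithelial markers ran from 4.45 to 4.46 in the Runx3 line, against 3.77 to 3.78 in vector cells. The epithelial markers other than Krt8 were above the 75th percentile on no array. Over all arrays Krt8 ran from 3.975 to 6.936 and Cdh1 from 2.805 to 4.422, and Epcam, Krt18, Krt19 and Cldn4 had narrower ranges. The epithelial mean was also higher without overlap in the Runx2 line (4.00 to 4.02) and the Runx1 line (3.92 in both), and at 4.02 in both induced RUNX1-ER arrays against 3.75 to 3.88 in the uninduced ones. Vector cells with 4-OHT, at 3.825 to 3.907, were also above those without it, and the human RUNX1 array was at 4.06. The part of these differences in the results of the lines and of induction was not tested. As a check of the labels, Runx1 averaged 9.21 in the Runx1 line against 4.65 in vector cells, while Runx3 averaged 4.21 in the Runx3 line against 4.45 in vector cells (log2 difference −0.24, limma adjusted p = 0.447). Where the Runx3 probes lie relative to the transduced sequence is not known here, so the array does not check that label, and the Runx3 line means the arrays labelled as such. Levels of Runx2 were not analysed here. An Esr1 probe set, for the receptor whose ligand-binding part is usually the ER of such fusions, averaged 6.51 in the uninduced RUNX1-ER group against 4.06 in the vector group. Array medians lay between 3.69 and 3.75 log2 units.

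In all, 12 of the 66 genes passed the test (limma, adjusted p under 0.05 over all genes) in at least 1 of 11 comparisons, and all 12 did so in at least 1 mouse line against vector. They were Sema3a, Sema5a, Sema7a, Nrp1, Nrp2, Plxna1, Efna5, Efnb2, Epha2, Slit2, Slit3 and Unc5b. The share of all genes that passed in at least 1 of the 11 comparisons was not counted. This count, and those by brightness and by family over any comparison, therefore have no share of all genes beside them. In the Runx3 line 3 rose and 6 fell, which is 13.6% of the 66, where 9.37% of all genes passed (3.97% higher and 5.4% lower). In the Runx2 line 3 rose and 4 fell (10.6%, where 2.57% of all genes passed, 0.923% higher and 1.65% lower), and in the Runx1 line 3 rose and 3 fell (9.09%, where 1.7% of all genes passed, 0.973% higher and 0.726% lower). These shares differed with probe-set brightness. The mean over all arrays was above 5 log2 units for 23 of the 66 genes, and 10 of these 23 but 2 of the other 43 were called somewhere. Among genes that bright the shares were 34.8% of guidance genes against 18.5% of all genes in the Runx3 line, 26.1% against 5.06% in the Runx2 line and 21.7% against 3.35% in the Runx1 line. The mean used for this includes the groups in which a gene was high, so these shares are a description. Unc5b (mean 5.21) averaged 4.86 in vector cells and was above 5 only in the means of the mouse Runx lines and on the human RUNX1 array. It counts among the bright genes called in the Runx3 and Runx1 lines. The median of the 66 lay near 0 in each line. The median log2 difference was 0.042 in the Runx3 line, 0.011 in the Runx2 line and 0.017 in the Runx1 line, where the median of all genes was 0, −0.010 and −0.006. The 3 mouse lines were set against the same vector arrays, so agreement among these lines is not independent. The counts depend on single arrays. The 9 calls of the Runx3 line became 5 without Runx3 replicate 1, the 7 of the Runx2 line became 2 without vector replicate 2, 4 without either vector replicate 1 or Runx2 replicate 1 and 4 with the mean of each gene's probe sets, and the 6 of the Runx1 line became 3 without Runx1 replicate 1 or either vector array.

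**Figure D1:**
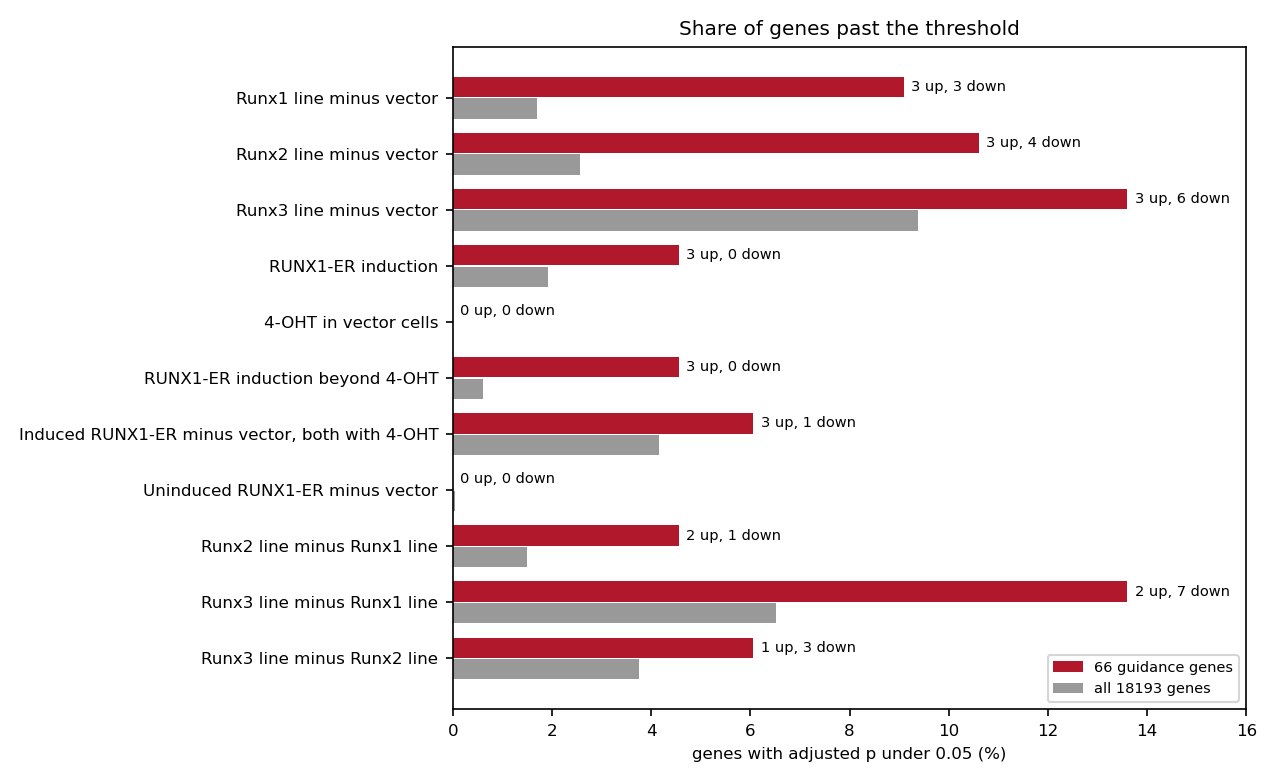
Share of genes with a limma adjusted p under 0.05 in each of the 11 comparisons (horizontal axis, percent), for the 66 guidance genes (red) and all 18193 genes (grey), with the number of guidance genes that were higher and lower. The red bar reaches 13.6% for the Runx3 line against vector, where the grey bar reaches 9.37%, and both are at 0 for 4-OHT in vector cells.

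Sema3a, a secreted semaphorin that repels growth cones through Nrp1, fell in the Runx3 and Runx2 lines. Its brightest probe set (1420416_at) read 7.17 and 7.23 log2 units in the Runx3 line, 7.68 and 7.92 in the Runx2 line, 8.10 and 8.03 in the Runx1 line, and 8.46 and 8.52 in vector cells. The arrays of each line lay below those of vector cells, and those of the Runx3 line lay lowest of the 15. The log2 difference from vector was −1.29 (SE 0.11, adjusted p = 4.49e-06) in the Runx3 line, a level 2.45-fold lower, and −0.70 (adjusted p = 0.00257) in the Runx2 line. In the Runx1 line it was −0.43 (adjusted p = 0.0689), which missed the threshold. Another bright probe set (1449865_at) fell by 1.01 in the Runx3 line (adjusted p = 0.00173 over all probe sets), and its Runx2 difference was −0.57 (adjusted p = 0.156). In bulk RNA, less RNA in each cell and fewer cells that express a gene cannot be told apart.

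Nrp1 and Nrp2 encode the neuropilins, the co-receptors that bind class 3 semaphorins and also forms of vascular endothelial growth factor (VEGF), and they moved in opposite directions. Nrp1 was the only one of these families' genes apart from Efna5 that passed with the same sign in all 3 mouse lines. Its probe set (1448943_at) read 8.71 and 8.77 in the Runx3 line, 8.98 and 9.22 in the Runx2 line, 9.10 and 9.00 in the Runx1 line, and 9.60 and 9.65 in vector cells. Every array of the lines lay below the vector arrays. The log2 differences were −0.88 (SE 0.09, adjusted p = 3.86e-05), −0.52 (adjusted p = 0.00725) and −0.57 (adjusted p = 0.00514) in the same order. The Runx2 call was lost without Runx2 replicate 1, vector replicate 1 or vector replicate 2 (adjusted p = 0.0566 to 0.0856), and the Runx1 call without Runx1 replicate 2 or vector replicate 2 (adjusted p = 0.0688 to 0.0724). In the Runx3 line, 2 of the other 3 Nrp1 probe sets also fell, by 0.69 and 0.89. In the Runx2 line the other 3 differed by −0.36, −0.56 and −0.13, none past the threshold (adjusted p = 0.0939 to 0.824 over all probe sets). In the Runx1 line 1448944_at fell by 0.76 (adjusted p = 0.0202), while 1418084_at and 1457198_at missed the threshold (adjusted p = 0.103 and 0.957).

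Nrp2 had the largest rise of the 66 genes in the Runx3 line. Its probe set (1435349_at) read 8.18 and 8.34 in the Runx3 line, 7.40 and 7.58 in the Runx2 line, 7.07 and 7.12 in the Runx1 line, and 6.86 and 6.51 in vector cells. The arrays of the Runx3 line stood above those of the Runx2 line, those above the Runx1 line, and those above vector cells, with no overlap. The level was 2.99-fold higher than in vector cells in the Runx3 line (log2 difference 1.58, SE 0.13, adjusted p = 6.13e-06) and 1.75-fold higher in the Runx2 line (0.81, adjusted p = 0.00471, or 0.0713 without vector replicate 2). In the Runx1 line the difference was 0.41 (adjusted p = 0.216). Of the other Nrp2 probe sets, 1456778_at rose by 1.83 and 1426528_at by 1.27 in the Runx3 line, and 1447343_at, with a mean of 3.13 over all arrays, differed by −0.08. In the Runx2 line they differed by 0.72, 0.29 and 0.03 in the same order (adjusted p = 0.00501, 0.669 and 0.982 over all probe sets).

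Plxna1, a type A plexin that carries class 3 semaphorin signals across the membrane, fell in the Runx3 line. It read 5.50 and 5.69 on the Runx3 arrays, 6.36 and 6.35 on the Runx2 arrays, 5.71 and 5.87 on the Runx1 arrays, and 6.23 and 6.20 on the vector arrays (1428623_at). The Runx3 and Runx1 arrays lay below those of vector cells, and the Runx2 arrays above them. The differences were −0.62 (SE 0.13, adjusted p = 0.00745) for Runx3, 0.14 (adjusted p = 0.745) for Runx2 and −0.43 (adjusted p = 0.160) for Runx1. The Runx3 call was lost without Runx3 replicate 1 or vector replicate 1 (adjusted p = 0.0747 and 0.0610). The other Plxna1 probe set (1421232_at, mean 3.58 over all arrays) differed by −0.115 in the Runx3 line (adjusted p = 0.686 over all probe sets). Of the other 8 plexins none was called. Plxnd1, named here after its values were seen because it came closest, read 5.65 and 5.90 in the Runx2 line against 5.21 and 4.92 in vector cells (difference 0.71, adjusted p = 0.0520).

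**Figure D2:**
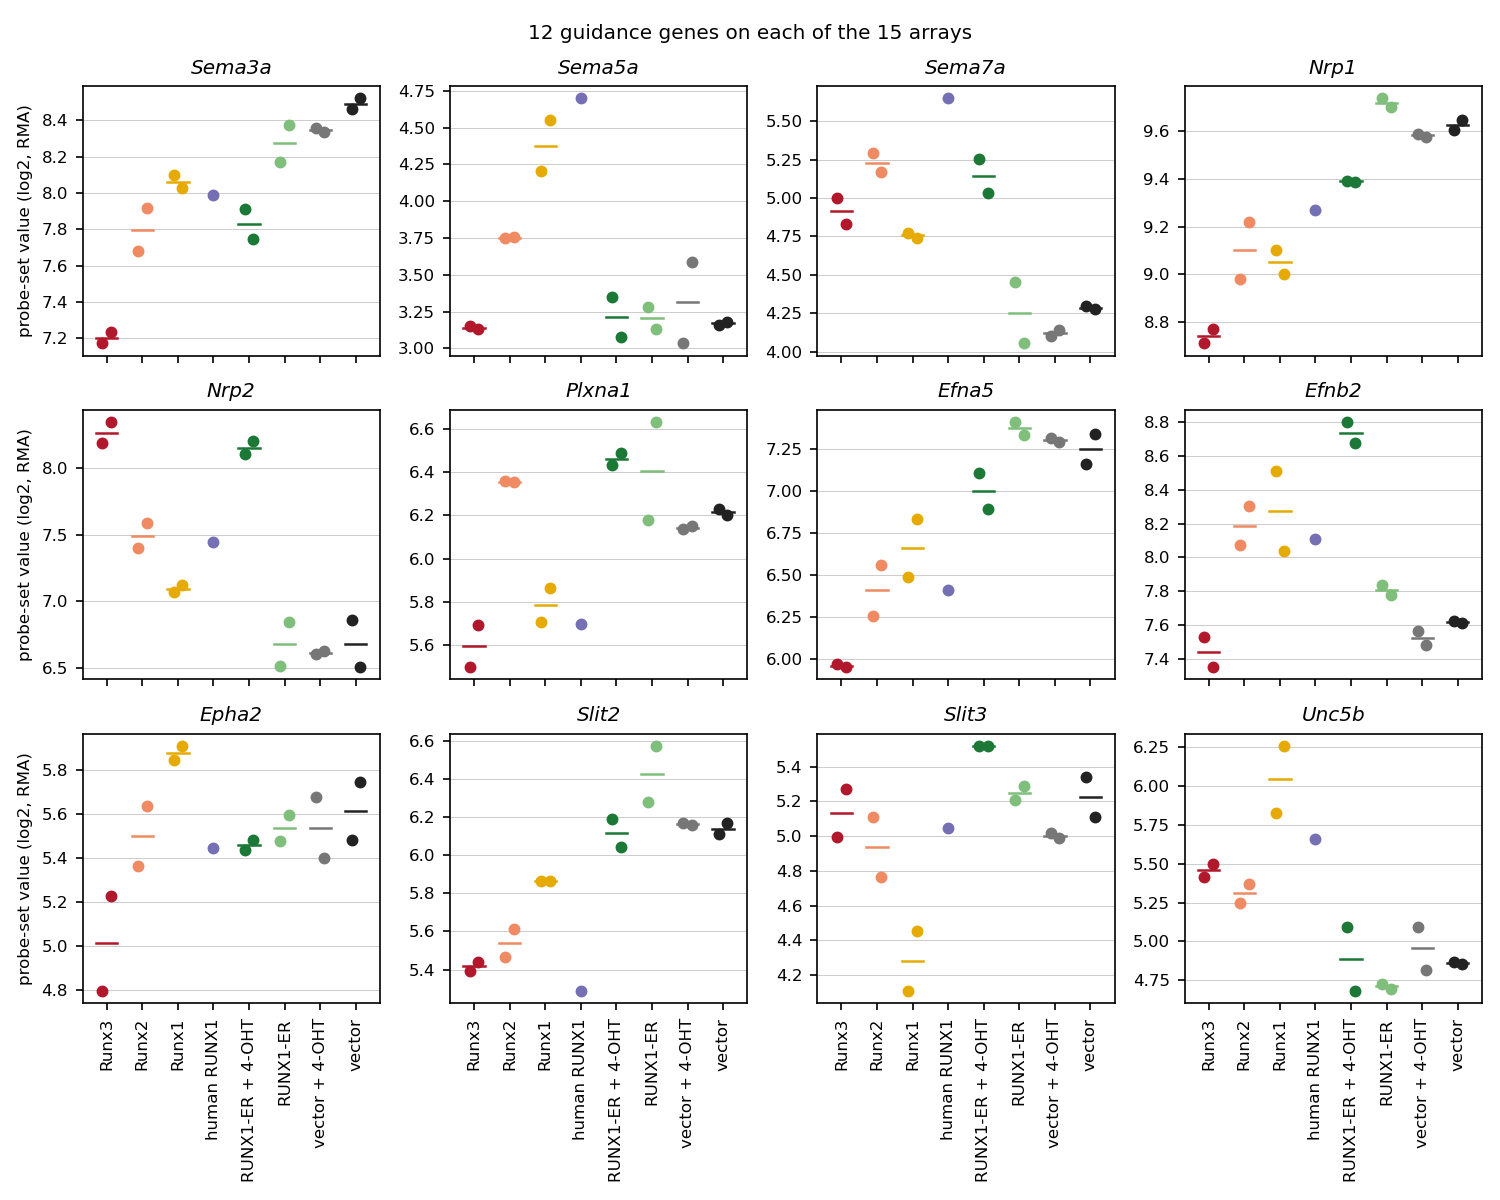
Probe-set values (vertical axes, log2 units after RMA, scaled separately in each panel and not starting at 0) of the 12 guidance genes called in any comparison, on each of the 15 arrays by group (horizontal axes); points are arrays and lines are group means, with no line for the human RUNX1 group of 1 array. Sema3a, Nrp1 and Efna5 lie below the vector arrays on all 6 arrays of the mouse Runx lines, and Nrp2 lies above them.

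Outside class 3, 2 of 13 semaphorin genes were called, and both rose. Sema7a, a membrane-anchored semaphorin that can signal through integrins, read 5.00 and 4.83 in the Runx3 line, 5.29 and 5.17 in the Runx2 line, 4.77 and 4.74 in the Runx1 line, and 4.30 and 4.28 in vector cells (1459903_at). All 6 arrays of the lines lay above the vector arrays. The differences were 0.63 (SE 0.13, adjusted p = 0.00579) for Runx3, 0.94 (adjusted p = 0.000951) for Runx2 and 0.47 (adjusted p = 0.103) for Runx1. The Runx3 call was lost without Runx3 replicate 1 (adjusted p = 0.0594) and with the mean of its probe sets, and the other Sema7a probe set (1422040_at) differed by −0.13 and −0.02 in the Runx3 and Runx2 lines. Sema5a, a transmembrane semaphorin with thrombospondin repeats, read 3.15 and 3.13 in the Runx3 line, 3.75 and 3.76 in the Runx2 line, 4.20 and 4.55 in the Runx1 line, and 3.16 and 3.18 in vector cells (1437422_at). It stood out in the Runx1 line (difference 1.21, SE 0.16, adjusted p = 0.00136), missed the threshold in the Runx2 line (0.58, adjusted p = 0.0975) and was level with vector in the Runx3 line (−0.03, adjusted p = 0.962). The vector arrays lay below the array medians for this probe set, where RMA compresses differences, and the other 3 Sema5a probe sets differed by −0.01 to 0.25 in the Runx1 line.

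Of 8 ephrin genes 2 were called, Efna5 and Efnb2. Efna5, a GPI-anchored ephrin-A that drives cell repulsion and de-adhesion, read 5.97 and 5.95 in the Runx3 line, 6.26 and 6.56 in the Runx2 line, 6.49 and 6.83 in the Runx1 line, and 7.16 and 7.34 in vector cells (1436866_at). It fell in each line, by log2 differences of −1.29 (SE 0.13, adjusted p = 3.28e-05), −0.84 (adjusted p = 0.00322) and −0.59 (adjusted p = 0.0424) in that order, with no array of the lines reaching the vector arrays. The Runx2 call was lost without vector replicate 2 (adjusted p = 0.0533), and the Runx1 call without Runx1 replicate 1, vector replicate 1 or vector replicate 2 (adjusted p = 0.108 to 0.351). With the mean of its probe sets it was called in the Runx3 line (−0.63, adjusted p = 0.00335) but not in the Runx2 and Runx1 lines (adjusted p = 0.158 and 0.538). The other Efna5 probe set (1421796_a_at, mean 3.31 over all arrays) differed by 0.03, 0.11 and 0.10 in the lines.

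Efnb2, a transmembrane ephrin of arteries and mesenchyme, rose in the Runx2 and Runx1 lines. It read 7.53 and 7.35 in the Runx3 line, 8.07 and 8.30 in the Runx2 line, 8.51 and 8.04 in the Runx1 line, and 7.63 and 7.61 in vector cells (1419639_at). The Runx2 and Runx1 arrays lay above the vector arrays, and the Runx3 arrays below them. The differences were −0.18 (SE 0.14, adjusted p = 0.574) for Runx3, 0.57 (adjusted p = 0.0493) for Runx2 and 0.66 (adjusted p = 0.0295) for Runx1. The probe set 1419638_at gave 0.55 and 0.59 in the Runx2 and Runx1 lines (adjusted p = 0.0219 and 0.0188 over all probe sets). In the same order 1449548_at gave 0.186 and 0.405, and 1449549_at 0.230 and 0.199. Neither passed the threshold (adjusted p = 0.354 to 0.896 over all probe sets). The Runx2 call of the brightest probe set was lost without any 1 of its 4 arrays (adjusted p = 0.0758 to 0.238), with the mean of its probe sets (0.38, adjusted p = 0.0729) and with array medians set equal (adjusted p = 0.0580), and the Runx1 call was lost without Runx1 replicate 1, vector replicate 1 or vector replicate 2 (adjusted p = 0.173 to 0.241).

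Of 13 Eph receptor genes, 1 was called. Epha2, a receptor of ephrin-A ligands common in epithelial and cultured cells, read 4.80 and 5.23 in the Runx3 line, 5.37 and 5.64 in the Runx2 line, 5.85 and 5.91 in the Runx1 line, and 5.48 and 5.75 in vector cells (1421151_a_at). The Runx3 arrays lay below the vector arrays and the Runx2 arrays overlapped them. In the Runx3 line it fell by 0.60 (SE 0.15, adjusted p = 0.0229), a call lost without Runx3 replicate 1 or vector replicate 2 (adjusted p = 0.208 and 0.207). Among EphB receptors none was called. Ephb3 had the smallest p of them, at 5.88 and 5.74 in the Runx1 line against 6.12 and 6.12 in vector cells (difference −0.30, adjusted p = 0.485).

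The secreted repellents Slit2 and Slit3 were lower in different lines. Slit2 read 5.39 and 5.44 in the Runx3 line, 5.47 and 5.61 in the Runx2 line, 5.86 and 5.87 in the Runx1 line, and 6.11 and 6.17 in vector cells (1424659_at). The arrays of every line lay below those of vector cells. The differences were −0.72 (SE 0.10, adjusted p = 0.000573), −0.60 (adjusted p = 0.00680) and −0.27 (adjusted p = 0.350) in that order. With the mean of its 3 probe sets Slit2 changed by −0.27 in the Runx3 line and −0.19 in the Runx2 line and was not called, and the Runx2 call was also lost without Runx2 replicate 1, vector replicate 1 or vector replicate 2 (adjusted p = 0.0502 to 0.0773).

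Slit3 read 4.99 and 5.27 in the Runx3 line, 5.11 and 4.77 in the Runx2 line, 4.11 and 4.45 in the Runx1 line, and 5.34 and 5.11 in vector cells (1452296_at). The Runx1 arrays were the lowest of the 15 and the Runx3 arrays overlapped the vector arrays. In the Runx1 line it fell by 0.95 (SE 0.14, adjusted p = 0.00320, or 0.0503 without Runx1 replicate 1 and 0.0580 without vector replicate 1) and its other differences, −0.29 for Runx2 and −0.09 for Runx3, missed the threshold (adjusted p = 0.454 and 0.825). None of the 4 Robo genes, which encode the Slit receptors, was called, and none had a probe set with a mean above 5 log2 units. Robo3 had the smallest p of them, at 3.75 and 3.82 in the Runx2 line against 3.55 and 3.47 in vector cells (difference 0.27, adjusted p = 0.591).

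Unc5b, a receptor that turns netrin into a repellent, rose in the Runx3 and Runx1 lines. It read 5.42 and 5.50 in the Runx3 line, 5.25 and 5.37 in the Runx2 line, 5.83 and 6.25 in the Runx1 line, and 4.87 and 4.86 in vector cells (1435110_at). All 6 arrays of the lines lay above the vector arrays. The level was 2.27-fold higher in the Runx1 line (log2 difference 1.18, SE 0.15, adjusted p = 0.00102). The differences were 0.60 in the Runx3 line (adjusted p = 0.0262) and 0.45 in the Runx2 line (adjusted p = 0.200). The Runx3 call was lost without any 1 of its 4 arrays (adjusted p = 0.0810 to 0.150) and against the vector arrays with 4-OHT (0.50, adjusted p = 0.0535). The other Unc5b probe set (1453269_at) differed by 0.28 in the Runx1 line and 0.04 in the Runx3 line (adjusted p = 0.620 and 0.952 over all probe sets). The netrins had probe-set means of 3.32 to 3.83 over all arrays and were not called, with Ntn4 at 4.08 and 3.88 in the Runx1 line against 3.64 and 4.01 in vector cells (difference 0.16, adjusted p = 0.858).

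**Figure D3:**
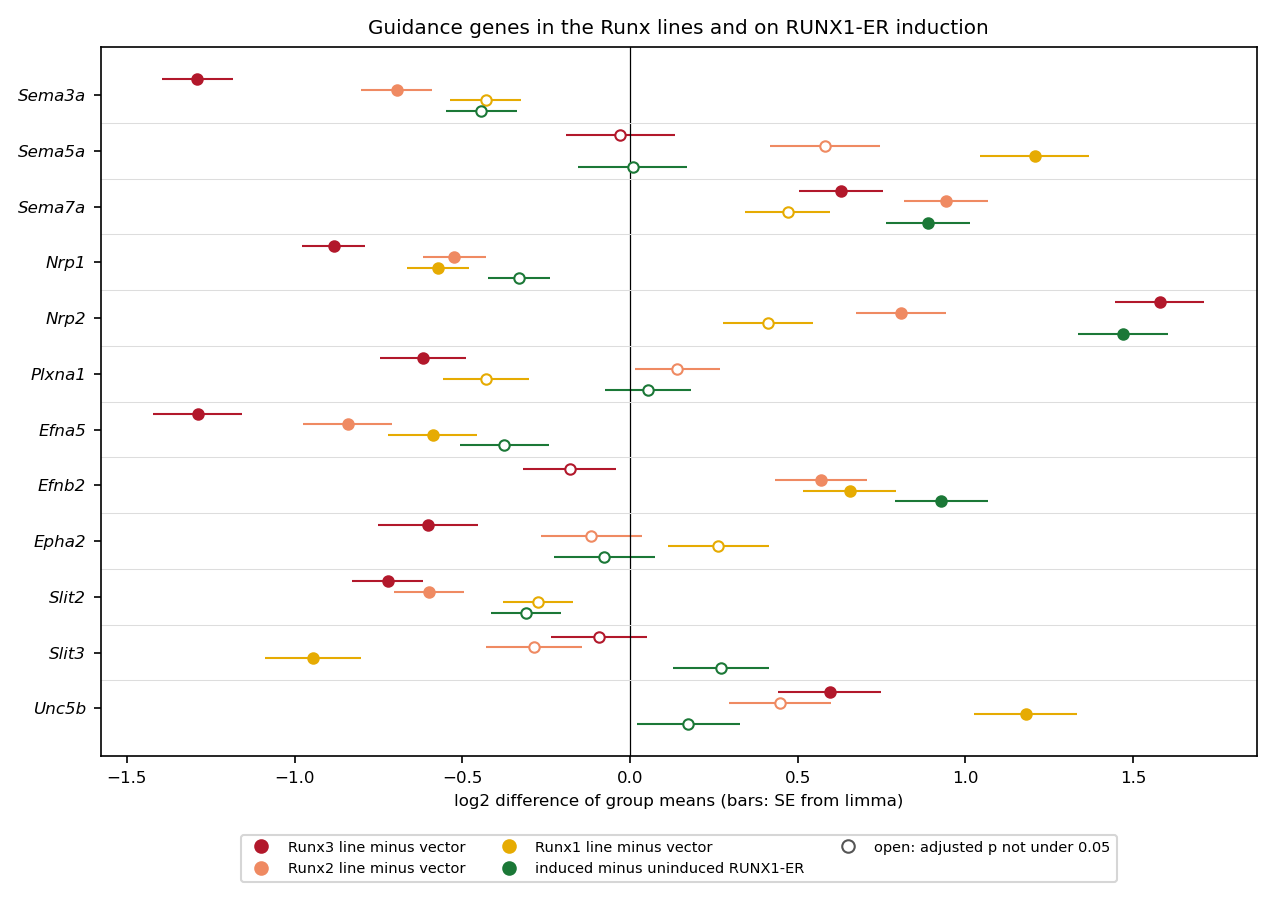
Log2 differences of group means (horizontal axis, bars are SE from limma) for the 12 called guidance genes (vertical axis) in the Runx3, Runx2 and Runx1 lines against vector and in induced against uninduced RUNX1-ER cells; filled points have an adjusted p under 0.05. Nrp2 lies at 1.58 in the Runx3 line and 1.47 on induction, and Sema3a and Efna5 at −1.29 in the Runx3 line.

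Induction of RUNX1-ER asked what human RUNX1 activity changed within 24 h of ligand. Nrp2, Efnb2 and Sema7a rose, and no guidance gene fell (3 of 66, 4.55%, where 1.92% of all genes and 3.86% of those above 5 log2 units passed, 1.01% of all genes higher and 0.912% lower). Nrp2 read 8.10 and 8.20 in induced against 6.51 and 6.85 in uninduced cells, a level 2.77-fold higher (log2 difference 1.47, SE 0.13, adjusted p = 6.73e-05). Efnb2 read 8.80 and 8.67 in induced against 7.84 and 7.78 in uninduced cells (0.93, SE 0.14, adjusted p = 0.00301), and its probe sets 1419638_at and 1449548_at rose by 1.10 and 1.01. Its dimmer probe set 1449549_at, with a mean of 4.18 over all arrays, differed by 0.05 (adjusted p = 0.968 over all probe sets). Sema7a read 5.25 and 5.03 in induced against 4.45 and 4.05 in uninduced cells (0.89, SE 0.13, adjusted p = 0.00228, or 0.0838 with the mean of its probe sets). Its other probe set (1422040_at) showed no rise, at −0.06 (adjusted p = 0.951 over all probe sets). The induced arrays of all 3 genes lay above all uninduced and vector arrays, with and without 4-OHT. Nrp2 and Efnb2 were called under every alternative run. Among genes that fell in the Runx lines, the induced values differed by −0.44 for Sema3a (adjusted p = 0.0546), −0.33 for Nrp1 (0.118), −0.37 for Efna5 (0.260) and −0.31 for Slit2 (0.231), none past the threshold. The remaining genes called lower in a line did not all lean this way. Slit3 averaged 5.52 in induced against 5.25 in uninduced cells, Plxna1 6.46 against 6.41, and Epha2 5.46 against 5.54, also not called. With an intensity trend in the variance prior 6 genes were called, 3 higher and 3 lower, among them Sema3a, Nrp1 and Efna1. With genes above 5 log2 units alone there were 5.

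The ligand by itself called no guidance gene. In vector cells with 4-OHT against those without, 0 of 66 passed in limma (0% of all genes passed), 4 of the 66 and 1225 of all genes had an unadjusted p under 0.05, and the differences ran from −0.38 to 0.38. Every alternative run for this comparison also gave 0. Nrp2 read 6.61 and 6.63 in vector cells with 4-OHT against 6.86 and 6.51 without it. Set against this response, the induction of Nrp2 was 1.54 (SE 0.19, adjusted p = 0.00180), that of Sema7a 1.05 (adjusted p = 0.0140) and that of Efnb2 1.02 (adjusted p = 0.0351), and these 3 were the guidance genes called in that comparison (4.55%, where 0.605% of all genes and 1.14% of those above 5 log2 units passed, 0.489% of all genes higher and 0.115% lower). Efnb2 lost that call without any 1 of the 8 arrays (adjusted p = 0.0597 to 0.151), and Sema7a without induced RUNX1-ER replicate 1, vector replicate 1 or vector replicate 2 (adjusted p = 0.0659 to 0.0813). The Efnb2 call was also lost with array medians set equal (0.97, adjusted p = 0.0588) and the Sema7a call with the mean of its probe sets (0.55, adjusted p = 0.154). With any 1 of these 3 arrays left out the count was 1 (Nrp2).

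Against vector cells with 4-OHT, induced RUNX1-ER cells had higher Nrp2 (1.54, adjusted p = 3.73e-05), Efnb2 (1.21, adjusted p = 0.000330) and Sema7a (1.02, adjusted p = 0.000554). They had lower Sema3a, at 7.91 and 7.75 against 8.36 and 8.33 (−0.51, SE 0.11, adjusted p = 0.0158), and these 4 calls are 6.06% of the 66, where 4.16% of all genes and 8.13% of those above 5 log2 units passed (2.9% of all genes higher and 1.26% lower). The Sema3a call was lost without induced RUNX1-ER replicate 2 or either vector replicate with 4-OHT (adjusted p = 0.0615 to 0.145). Uninduced RUNX1-ER cells differed from vector cells in 0 of 66 guidance genes by limma (0.044% of all genes and 0.0621% of those above 5 log2 units passed, 0.033% of all genes higher and 0.011% lower), with 7 of the 66 and 1447 of all genes at an unadjusted p under 0.05, and every alternative run for this comparison gave 0. These comparisons share arrays with the induction comparison.

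**Figure D4:**
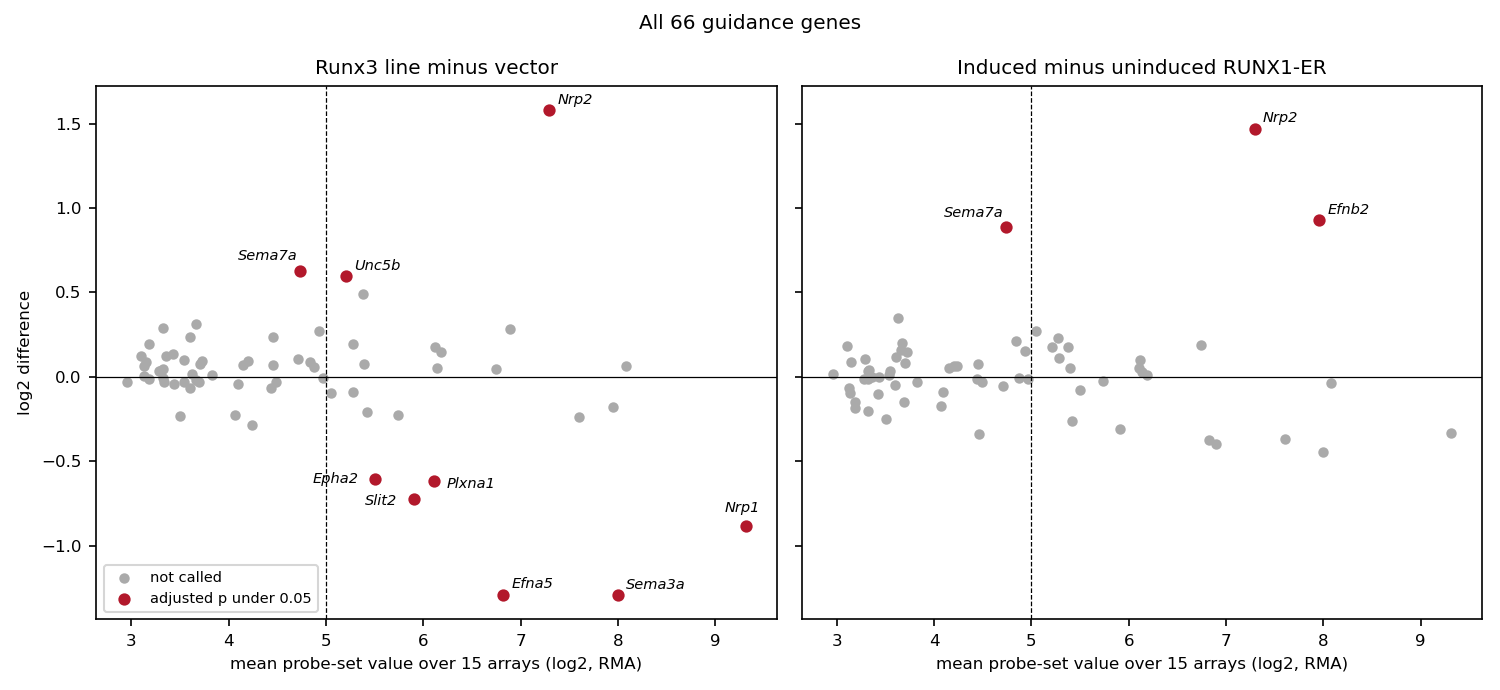
Log2 difference (vertical axis) against the mean probe-set value over 15 arrays (horizontal axis, log2 units after RMA) for all 66 guidance genes, in the Runx3 line against vector (left) and in induced against uninduced RUNX1-ER cells (right); red points have an adjusted p under 0.05 and the dashed line marks 5 log2 units. On the left 8 of the 9 red points lie right of that line, and on the right Nrp2 at 1.47, Efnb2 at 0.93 and Sema7a at 0.89 stand apart from the rest.

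Promoter sequence is shown for the genes that rose together on induction, Nrp2, Efnb2 and Sema7a. Each is a RefSeq window of 300 bases (GRCm38.p6) from 250 before to 50 after a start site, on the strand of the gene. Capitals mark the core letters bound by Runx proteins, TGTGGT or TGCGGT, searched on both strands (ACCACA and ACCGCA on the other strand). The windows are chr1:62703067-62703366 on the plus strand for Nrp2, chr8:8661193-8661492 on the minus strand for Efnb2 and chr9:57939862-57940161 on the plus strand for Sema7a. The start site is the 5′ end of the RefSeq gene for Nrp2 and Efnb2, and lies 516 bases inside it for Sema7a.
Nrp2: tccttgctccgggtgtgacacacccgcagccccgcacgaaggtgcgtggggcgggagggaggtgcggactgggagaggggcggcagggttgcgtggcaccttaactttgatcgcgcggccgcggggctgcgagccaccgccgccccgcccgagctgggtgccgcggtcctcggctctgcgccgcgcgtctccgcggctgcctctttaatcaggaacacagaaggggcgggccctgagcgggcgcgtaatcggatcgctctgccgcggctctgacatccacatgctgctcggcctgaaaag
Efnb2: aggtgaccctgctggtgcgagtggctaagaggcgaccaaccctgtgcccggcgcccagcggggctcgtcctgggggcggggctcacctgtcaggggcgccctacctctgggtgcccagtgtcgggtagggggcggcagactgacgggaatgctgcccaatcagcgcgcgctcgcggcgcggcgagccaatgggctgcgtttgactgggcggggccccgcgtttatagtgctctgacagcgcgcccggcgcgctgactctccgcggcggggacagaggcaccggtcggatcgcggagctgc
Sema7a: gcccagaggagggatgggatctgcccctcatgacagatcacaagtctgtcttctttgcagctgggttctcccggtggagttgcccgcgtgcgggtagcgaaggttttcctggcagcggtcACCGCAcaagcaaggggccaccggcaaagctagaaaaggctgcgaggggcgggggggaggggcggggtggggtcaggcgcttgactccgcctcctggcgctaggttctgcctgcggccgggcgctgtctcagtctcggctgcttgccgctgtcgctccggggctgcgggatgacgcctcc
The letters occurred once in the window of Sema7a, on the opposite strand at position −130 from the start site. They were not in the windows of Nrp2 and Efnb2. A window was at hand for 11 of the 12 called genes, and 3 of these 11 windows held the letters, those of Sema7a, Efna5 and Sema3a. The Sema3a window is at an internal start site, 271962 bases inside the gene, and not at its 5′ end. Of the 73 windows of 57 guidance genes 20.5% held them, as did 22.4% of all 32851 windows, so the share among guidance genes was close to that of promoters in general. A match is a description of the sequence, and no match says only that these letters are not in that window.

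These comparisons share arrays with each other and with those against vector. In the Runx3 line 2 genes were higher and 7 lower than in the Runx1 line (13.6%, where 6.52% of all genes and 12.8% of those above 5 log2 units passed, 2.39% of all genes higher and 4.13% lower). Nrp2 was higher by 1.17 (SE 0.13, adjusted p = 0.000139) and Slit3 by 0.85 (SE 0.14, adjusted p = 0.00259). Sema5a was lower by a log2 difference of −1.24 (adjusted p = 0.000432), Epha2 by −0.87 (adjusted p = 0.00331), Sema3a by −0.86 (adjusted p = 0.000246), Efnb2 by −0.83 (adjusted p = 0.00229), Efna5 by −0.70 (adjusted p = 0.00571), Unc5b by −0.58 (adjusted p = 0.0388) and Slit2 by −0.45 (adjusted p = 0.0210). For Epha2 that is 4.80 and 5.23 on the Runx3 arrays against 5.85 and 5.91 on the Runx1 arrays. Slit2 lost its call without any 1 of the 4 arrays (adjusted p = 0.0866 to 0.110), Unc5b without Runx1 replicate 2 or either Runx3 replicate (adjusted p = 0.127 to 0.313) and Efna5 without Runx1 replicate 2 (adjusted p = 0.0742). With the mean of probe sets Efna5 (−0.39, adjusted p = 0.0737) and Slit2 (−0.19, adjusted p = 0.276) were not called, Unc5b lost its call with the replicate block (adjusted p = 0.0532), and Sema5a and Sema3a kept theirs at smaller differences (−0.38 and −0.55). The other 6 calls were kept when any 1 array was left out. Nrp1 differed by −0.31 (adjusted p = 0.0691).

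Runx3 against Runx2 gave 1 higher and 3 lower genes (6.06%, where 3.76% of all genes and 7.23% of those above 5 log2 units passed, 1.85% of all genes higher and 1.91% lower). Nrp2 was higher by 0.77 (SE 0.13, adjusted p = 0.00675). Plxna1 was lower by a log2 difference of −0.76 (adjusted p = 0.00562), Efnb2 by −0.75 (adjusted p = 0.00947) and Sema3a by −0.59 (adjusted p = 0.00755). Each call was lost without at least 1 array, namely Runx3 replicate 2 or Runx2 replicate 1 for Nrp2 (adjusted p = 0.0740 and 0.0648), Runx3 replicate 1 for Plxna1 (0.0565), Runx3 replicate 2 or Runx2 replicate 2 for Efnb2 (0.0951 and 0.0701), and Runx3 replicate 1 or Runx2 replicate 2 for Sema3a (0.0573 and 0.0616). With the mean of probe sets Sema3a differed by −0.32 (adjusted p = 0.129), and Plxna1 was still called, at −0.35. The count was 2 without any 1 of Runx3 replicate 1, Runx3 replicate 2 and Runx2 replicate 2, and 7 with an intensity trend in the variance prior. Runx2 against Runx1 gave 2 higher and 1 lower genes (4.55%, where 1.5% of all genes and 2.94% of those above 5 log2 units passed, 0.511% of all genes higher and 0.989% lower). Slit3 was higher by 0.66 (adjusted p = 0.0412) and Plxna1 by 0.57 (adjusted p = 0.0474), and Unc5b was lower by a log2 difference of −0.73 (adjusted p = 0.0313). Plxna1 lost its call with the mean of its probe sets (0.28, adjusted p = 0.122) and with array medians set equal (adjusted p = 0.0609), and Slit3 with repeated quantile normalization (adjusted p = 0.0514) and with the replicate block (adjusted p = 0.0619). This count was 0 without Runx2 replicate 1 or Runx1 replicate 2 and 1 without either other array.

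The single array with human RUNX1 gives values without a test or a replicate check. Its values are listed for the 12 guidance genes called in the comparisons above. Against the mean of the vector arrays it read higher for Sema5a by 1.53, Sema7a by 1.36, Unc5b by 0.80, Nrp2 by 0.76 and Efnb2 by 0.49. It read lower for Slit2 (log2 difference −0.85), Efna5 (−0.84), Plxna1 (−0.52), Sema3a (−0.50), Nrp1 (−0.36), Slit3 (−0.18) and Epha2 (−0.17). For Slit3 the array read 5.05, above the 4.11 and 4.45 of the line with mouse Runx1. Its Sema7a value of 5.65 was the highest of the 15 arrays. Guidance genes that were called in no comparison also differed on this array, among them Efna3 (−0.76), Unc5d (0.64), Plxnb2 (−0.61), Sema4d (0.58) and Plxnd1 (0.51).

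The other 54 guidance genes were called in no comparison. They include the remaining 6 class 3 semaphorins, among them Sema3f, and 11 semaphorins of other classes, 8 plexins, all 4 EphB and 8 EphA receptors, 4 ephrin-A and 2 ephrin-B genes, Slit1, the 4 Robo genes, the 3 netrins and 3 Unc5 genes. The largest of their differences in any comparison was that of Plxnd1 in the Runx2 line (0.71). A p that misses the threshold does not show that these genes were equal in the groups.

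Beside the 66 genes, a list of 87 genes of guidance signalling held 82 that were measured. In the Runx3 line 3 rose and 11 fell (17.1%, where 9.37% of all genes and 18.5% of those above 5 log2 units passed). The median log2 difference was −0.045 against 0 for all genes, and 43 of the 82 had a mean above 5 log2 units. Enah, which extends actin filaments below Robo and netrin receptors, rose without overlap, at 8.72 and 8.61 in the Runx3 line against 7.72 and 7.79 in vector cells (0.91, SE 0.09, adjusted p = 1.81e-05). Gpc1, a heparan sulphate proteoglycan that binds Slit, rose by 0.82 (adjusted p = 0.00315) and the adaptor Grb10 by 0.72 (adjusted p = 0.000283). Farp1, an exchange factor of the plexin pathway, fell by 0.71 (adjusted p = 0.000637, or 0.0989 with the mean of its probe sets). The count was 9 without Runx3 replicate 2 or vector replicate 1. In the part of the list below plexins and neuropilins, 4 of 21 genes fell in the Runx3 line (Farp1, Dpysl2, Rras and Arhgef11) and none was called in the Runx2 or Runx1 line. Below Eph receptors and ephrins 1 rose and 2 fell of 22, and beside Robo and netrin receptors 2 rose and 2 fell of 22. Of 17 co-receptors and ligands shared with other pathways, VEGF genes among them, 3 fell (Met, Dag1 and Vegfb).

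Among all genes above 5 log2 units, 5.06% passed in the Runx2 line, 3.35% in the Runx1 line and 3.86% on induction of RUNX1-ER. In the Runx2 line 3 genes of the list rose and 1 fell (4.88%, where 2.57% of all genes passed). They were Vegfa, the gene of a VEGF that binds neuropilins (0.66, adjusted p = 0.0190), Grb10 (0.65, adjusted p = 0.00207), Enah (0.49, adjusted p = 0.00800) and Ngef, an exchange factor below EphA receptors (−0.66, adjusted p = 0.0303). All but Grb10 lost the call without 1 or more arrays, Vegfa without Runx2 replicate 2 or vector replicate 2 (adjusted p = 0.122 to 0.197), Enah without Runx2 replicate 1 or vector replicate 1 (0.0545 to 0.103, and 0.458 with the mean of its probe sets) and Ngef without Runx2 replicate 1 or vector replicate 2 (0.232 to 0.284). In the Runx1 line Gpc1 (0.80, adjusted p = 0.0136) and Vegfa (0.73, adjusted p = 0.0128) rose and none fell (2.44%, where 1.7% of all genes passed), and each call was lost without any of 3 arrays, Runx1 replicate 2 and vector replicate 2 among them for both (adjusted p = 0.0591 to 0.176). On induction of RUNX1-ER, Vegfa (0.74, adjusted p = 0.0124), Ablim1 (0.62, adjusted p = 0.0479) and Grb10 (0.56, adjusted p = 0.00833) rose and Met, a receptor that pairs with plexins, fell by 0.50 (adjusted p = 0.0401), which is 4.88% where 1.92% of all genes passed. Vegfa read 7.34 and 7.33 in induced cells against 6.51 and 6.68 in uninduced cells. These 4 calls became 0 without induced replicate 1, 1 without induced replicate 2, 1 without uninduced replicate 1 and 2 without uninduced replicate 2.

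Between lines, the list had 4 genes higher and 10 lower in Runx3 cells than with Runx1 (17.1%, where 6.52% of all genes passed). This count fell to between 5 and 8 when 1 of the 4 arrays was left out and to 7 with the mean of probe sets. Enah was higher by 0.91 (adjusted p = 3.41e-05), and the small GTPase gene Rras was lower by a log2 difference of −0.80 (adjusted p = 0.000124). Runx3 against Runx2 gave 1 higher and 5 lower (7.32%, where 3.76% of all genes passed), and 1 to 4 in all without 1 array. Runx2 against Runx1 gave 3 higher and 1 lower (4.88%, where 1.5% of all genes passed), and 0 to 2 in all without 1 array. Induced RUNX1-ER cells against vector cells, both with 4-OHT, gave 6 higher and 1 lower (8.54%, where 4.16% of all genes passed), and 3 to 7 in all without 1 array. Limma called 0 of the 82 for 4-OHT in vector cells, uninduced RUNX1-ER against vector cells and the induction beyond the 4-OHT response. Of all genes, 0%, 0.044% and 0.605% passed in the same order. Unadjusted p was under 0.05 for 7, 4 and 16 of the 82 and for 1225, 1447 and 1916 of 18193 genes. By other settings the induction beyond the 4-OHT response gave 1 or 2 in 4 cases.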

How the data were processed

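Biotinylated cRNA from total RNA of 15 cultures was hybridised to Affymetrix arrays. The deposited values are on the log2 scale, and the authors made them with GCOS and RMA, per the labels' protocols, run from the Bioconductor affy package in an automated pipeline. The sources used here give no versions, probe-set definitions or genome build. RMA shrinks differences of dim probe sets, no detection calls were used, and the number of arrays limits precision.

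Of 45101 probe sets, the platform annotation gives 34945 a single symbol, 932 several and 9160 none, and 64 are controls. The brightest probe set by mean over all arrays stood for each of 18193 genes, and values of different probe sets were not compared. limma 3.58.1 (R 4.3.3) was fitted to all 15 arrays with 1 coefficient per group (7 residual and 5.65 prior degrees of freedom), with Benjamini-Hochberg adjustment within each comparison over all genes and a threshold of 0.05. Adjusted p-values in the text come from this fit unless said otherwise. In simulated data with 200 changed genes the script was tested before use. The members, lists, tests and alternatives were chosen with earlier results of these data known. Named genes are, in each comparison, members past the threshold, for each family without a call the member with the smallest p in the mouse lines, and up to 4 partner genes per comparison. Alternatives were the mean of all probe sets, a filter at 5 log2 units, array medians set equal, repeated quantile normalization, an intensity trend, other vector controls, a replicate block and leaving out each array. No pairing of arrays by replicate number was detected, as deviations of same-numbered arrays correlated at −0.121 to 0.116 over 21 pairs of groups. Correlations over all genes, many of them dim, cannot show that no groups shared a culture day or batch. Sequences are from RefSeq, and all 66 members matched its gene table.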

Additional observations from a re-analysis of the deposited data

Results flagged for a closer look

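The effect of 4-OHT differed between RUNX1-ER cells and vector cells for 3 guidance genes, by a test of the difference itself (limma interaction, adjusted over all genes). For Nrp2 the effect was 1.47 in RUNX1-ER cells against −0.07 in vector cells, a difference of 1.54 (adjusted p = 0.00180). For Sema7a it was 0.89 in RUNX1-ER cells against −0.16 in vector cells, a difference of 1.05 (adjusted p = 0.0140), where its other probe set gave 0.05 (adjusted p = 0.969 over all probe sets). For Efnb2 it was 0.93 in RUNX1-ER cells against −0.09 in vector cells, a difference of 1.02 (adjusted p = 0.0351). The Nrp2 difference was called under all 14 alternatives run. The Sema7a difference lost its call under 4 of 13, the mean of its probe sets among them (0.55, adjusted p = 0.154), and the Efnb2 difference under 9 of 14, which include leaving out any 1 of the 8 arrays and setting array medians equal (adjusted p up to 0.151). Both induced arrays lay above both uninduced arrays for each of these genes. No group held the 4 arrays or more that a check for single outlying arrays needs.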

How the results depend on the processing

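Of 48 calls of a guidance gene in a comparison, 20 held under every alternative run and 28 were lost under at least 1, and none changed direction. With 1 array left out, the number of guidance genes called was 3 to 5 (6 with all arrays) for Runx1 against vector, 2 to 6 (7) for Runx2, 5 to 8 (9) for Runx3, 3 to 4 (3) for induction, 1 to 2 (3) for induction beyond 4-OHT, 4 (4) for induced RUNX1-ER against vector with 4-OHT, and, between lines, 0 to 1 (3) for Runx2 over Runx1, 6 to 8 (9) for Runx3 over Runx1 and 2 to 4 (4) for Runx3 over Runx2. It was 0 throughout for 4-OHT in vector cells and for uninduced RUNX1-ER against vector cells. The mean of all probe sets gave 4 for Runx2 against vector. For induction, genes above 5 log2 units alone gave 5, and an intensity trend gave 6. The trend gave 7 for Runx3 against Runx2. The cause of these shifts was not tested, other than that leaving out an array leaves fewer samples. With the replicate number as a block the counts were 6, 7 and 9 for Runx1, Runx2 and Runx3 against vector, 3 for induction, 3 beyond 4-OHT, 4 for induced RUNX1-ER against vector with 4-OHT, 2 for Runx2 over Runx1, 8 for Runx3 over Runx1 and 4 for Runx3 over Runx2, and the arrays share only a number. Of the 43 calls whose gene has another probe set, 18 had another one called the same way and none the opposite way, and 8 had no other probe set of the same sign. Of the 66 genes, 43 had a mean at or under 5 log2 units, where RMA limits what can be detected.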

Other observations

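Exactly repeated values occur among these probe sets. Of the 66 guidance genes, 37 had the same value on at least 2 arrays, and Plxnb3 had the same value on 6 arrays. Among the 12 called genes 3 had such a repeat, namely Epha2, Slit3 and Unc5b. Ephb3 read the same on both vector arrays, so the spread of that group for that gene was 0.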
